A study of Mus musculus with 2 samples.

Results

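The genes described here are 10 genes of the rough endoplasmic reticulum (ER) of mouse cells, chosen by name as components of protein translocation and folding: Hspa5, Calr, Canx, P4hb, Pdia3, Pdia6, Sec61a1, Sec61b, Sec61g and Ssr2. All 10 names matched a row of the gene tables, out of 43346 rows with Ensembl gene identifiers. The 10 genes fall into 6 folding genes and 4 translocation genes. RNA was measured in 2 libraries of a single kind of sample, the liver of mouse embryos of strain B6NCrl at embryonic day 11.5, with male and female embryos pooled and no treatment or mutation named in the labels. Replicate 1 came from 109 embryos, and replicate 2 from a pool whose number the labels do not give. Spike-in RNAs were added, and each library was made by a SmartSeq protocol from an amount of total RNA equal to 1 cell. Although the assay title names single cells, the labelled source is tissue from many embryos, so the values describe a small sample of the RNA of a whole organ. Both pools carry the same donor identifier in the labels, and there is no second condition, so differences between the libraries are given as sizes without a test.

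Proteins bound for secretion or for membranes enter the ER through the Sec61 channel, which is built of an alpha, a beta and a gamma subunit and works with the translocon-associated protein (TRAP) complex. Inside, the Hsp70 chaperone BiP (Hspa5), the lectins calreticulin (Calr) and calnexin (Canx), and the protein disulfide isomerases help the chains to fold. Hepatocytes and their precursors secrete most plasma proteins, so the liver is a tissue with a large secretory load. When unfolded proteins build up, the unfolded protein response raises the transcription of many of these genes, in part through the ER stress response element (ERSE) in their promoters.

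That element is shown first because the deposited values give expression only, while promoter letters add a sequence that 4 of the 6 folding genes have in common. The element is already known from promoters of such genes, so its count among them is not an independent result. Promoter windows of RefSeq on build GRCm38.p6, from 250 bases before to 50 bases after the start of a gene, were found for 8 of the 10 genes, and Sec61a1 and Ssr2 had none in the table. The ERSE was searched as CCAAT and CCACG separated by any 9 bases, on both strands. It was found once each in Hspa5, Calr, Canx and Pdia6, which is 4 of 8 windows, against 0.119% of all 32851 windows. The 4 matches are given 5′ to 3′ with the fixed letters of the element in capitals:
Hspa5 (chr2:34772025-34772043, plus strand): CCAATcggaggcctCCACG
Calr (chr8:84847075-84847093, plus strand): CCAATgagggtcgaCCACG
Canx (chr11:50325800-50325818, minus strand): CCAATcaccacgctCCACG
Pdia6 (chr12:17266491-17266509, plus strand): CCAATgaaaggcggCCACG
The matches begin 65 bases before the start in Hspa5, 162 in Calr (on the opposite strand), 145 in Canx and 98 in Pdia6. The windows of P4hb, Pdia3, Sec61b and Sec61g held no match. The related element ERSE-II, which is ATTGG and CCACG separated by any 1 base, and the core TGACGTGG of the unfolded protein response element were in none of the 8, against 0.0365% and 0.676% of all windows. The shorter CCAAT, which is part of the ERSE, was in 7 of 8 windows, against 37.4% of all, and CCACG in 5 of 8, against 32.8%. A match is a description of letters, not evidence of a bound site. Starts in this paragraph are those of RefSeq. The GENCODE coordinates of Hspa5 given below begin at 34771970, so its match lies inside them. Hspa5 is the best known gene with this element. The 250 bases before its RefSeq start (chr2:34771840-34772089, plus strand) follow, with the fixed letters of the ERSE in capitals:
Hspa5 promoter: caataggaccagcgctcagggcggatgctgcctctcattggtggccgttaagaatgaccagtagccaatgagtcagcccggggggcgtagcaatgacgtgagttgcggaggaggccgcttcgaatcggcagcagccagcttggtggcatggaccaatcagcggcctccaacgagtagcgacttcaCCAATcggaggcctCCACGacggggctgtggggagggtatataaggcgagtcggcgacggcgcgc
Of 89 other secretory pathway genes with a window, 5 held an ERSE (5.62%), and these were Hsp90b1, Dnajc3, Syvn1, Derl3 and Ero1lb, which RefSeq names Ero1b.

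Most of the folding genes also share the end of their coding sequence. Soluble ER residents carry a C-terminal retention signal, named KDEL after its amino acids, that returns them from the Golgi. In the leading transcripts, the codons of that signal stood directly before the stop codon in Hspa5, Calr, P4hb and Pdia6. Pdia3 ended in a variant of the signal, and Canx, which is held by a membrane anchor, in neither. The last coding bases follow, from GENCODE release M21, with the 4 codons before the stop in capitals:
Hspa5: gaaAAAGATGAGTTGtag
Calr: gccAAGGATGAGCTGtag
P4hb: gtgAAGGATGAACTGtag
Pdia6: gagAAGGATGAGTTGtga
Pdia3: gcaCAAGAGGACCTCtaa
The 3 disulfide isomerases P4hb, Pdia3 and Pdia6 each held 2 in-frame copies of the codons of the active site, cysteine-glycine-histidine-cysteine, through which they exchange disulfide bonds. The copies are shown with those 4 codons in capitals, numbered from the start codon:
P4hb, codons 55 to 58: ccgtggTGTGGCCACTGCaaagct
P4hb, codons 399 to 402: ccttggTGTGGTCACTGCaagcag
Pdia3, codons 57 to 60: ccctggTGTGGACATTGCaagagg
Pdia3, codons 406 to 409: ccttggTGTGGCCACTGTaagaat
Pdia6, codons 60 to 63: ccatggTGTGGTCACTGCcagagg
Pdia6, codons 195 to 198: ccgtggTGTGGACACTGCaaaaac
The other 7 genes held none.

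The tables held 33289699 reads in replicate 1 and 32607453 in replicate 2, and spike-ins took 5.83% and 7.68% of TPM. The 10 genes together took 0.321% of all TPM in replicate 1 and 0.306% in replicate 2, a mean of 0.314% ± 0.0105 (SD, n = 2). TPM is the deposited length-scaled abundance, whose sum is fixed in each library. Each of the 10 reached 1 TPM in both libraries, the level used here for detection, as did 27.3% of protein-coding genes and 15.0% of all genes. Their median level was 8.37 in replicate 1 and 8.49 in replicate 2 on the log2(TPM + 1) scale, against 5.07 and 5.17 over the genes detected in both libraries. In RNA from a whole organ, fewer cells of a type and less RNA per cell cannot be told apart. By mean TPM the order was Calr, Sec61b, Hspa5, Pdia3, P4hb, Pdia6, Ssr2, Canx, Sec61a1 and Sec61g. The values of the 2 libraries did not overlap between Calr and Sec61b, between Canx and Sec61a1, or between Sec61a1 and Sec61g, and they overlapped between all other neighbours in that order. The gap between Calr and Sec61b was narrow, at 531.8 TPM for Calr in replicate 2 and 531.4 for Sec61b in replicate 1. Their deposited bounds there overlapped, at 512.8 to 531.5 and 510.6 to 534.5. Calr was not the highest in replicate 2, where Hspa5 had 556 TPM.

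**Figure D1:**
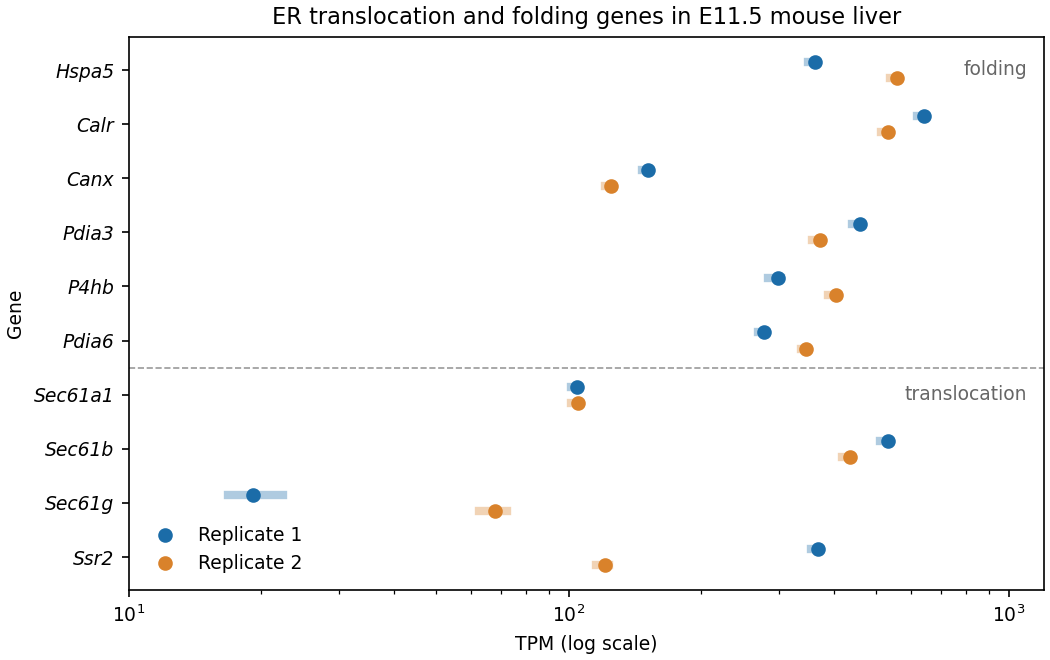
TPM of each gene (log axis) in replicate 1 (blue) and replicate 2 (orange), with folding genes above the dashed line and translocation genes below. Points are the deposited TPM and pale bars the deposited credibility bounds around the posterior mean TPM, so a point can lie just outside its bar. Ssr2 and Sec61g are the genes whose points lie farthest apart, at 367 and 121 TPM and at 19.1 and 67.8 TPM.

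Among the translocation genes, Sec61a1, encoding the alpha subunit that forms the pore (chromosome 6, 88503579 to 88518905, minus strand, mm10), had the closest TPM values of the 10. It had 104 TPM from 9379 reads, as deposited expected counts, in replicate 1 and 105 TPM from 9237 reads in replicate 2, or 104.5 ± 0.262 (SD, n = 2). When the libraries were scaled on the spike-in RNAs, the log2 ratio of replicate 1 over replicate 2 was 0.41 for Sec61a1, and that of P4hb, at -0.02, was then the nearest to 0. The deposited TPM bounds of Sec61a1 overlapped between the libraries, which was the case for no other of the 10 genes. Over all 6801 genes whose mean reached 10 TPM, the bounds did not overlap for 91.3%, so the bounds are narrower than the difference between libraries. Sec61b, the small beta subunit (chromosome 4, 47474658 to 47483242), had 531 TPM in replicate 1 and 435 in replicate 2. Per unit length it stood at 5.09 and 4.15 times Sec61a1. In reads the order was reversed, with 7303 and 5934 reads for Sec61b, which is 0.779 and 0.642 times Sec61a1, because the effective length of Sec61b is 465 bases and that of Sec61a1 is 3042 bases in replicate 1.

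Sec61g, the gamma subunit (chromosome 11, 16500530 to 16508484, minus strand), had the lowest level of the 10, with 19.1 TPM from 368 reads in replicate 1 and 67.8 TPM from 1289 reads in replicate 2. A near-identical copy of part of its sequence also held reads, and the part of that copy in this value was not tested. Gm10177, annotated as a transcribed processed pseudogene on chromosome 9 at 37252922 to 37253365, had 741 TPM from 6273 reads in replicate 1 and 1087 TPM from 8955 reads in replicate 2. It is not among the 10 genes and was looked up after the level of Sec61g was seen. Its release M21 transcript of 444 bases matched Sec61g-206, the leading Sec61g transcript of replicate 1, over 420 bases with no mismatch and no gap. Sec61g-206 has 754 bases and was matched from base 335 to base 754, so its earlier bases lay outside the match. The whole 207-base coding sequence shared by 4 of the 5 coding Sec61g transcripts, shown with its start and stop codons in capitals, lies inside Gm10177 without a difference:
Sec61g coding sequence: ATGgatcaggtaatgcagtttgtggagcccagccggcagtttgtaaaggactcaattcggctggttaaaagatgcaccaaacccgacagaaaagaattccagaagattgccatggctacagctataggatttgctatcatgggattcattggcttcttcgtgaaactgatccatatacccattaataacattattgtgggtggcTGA
The posterior standard deviation of the read count was 18.61 reads for Sec61g and 18.65 for Gm10177 in replicate 1, and 33.18 and 33.25 in replicate 2. Sec61g-201, a transcript that matched the copy over 360 bases and carries this coding sequence, was listed at 0 in both libraries.

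The matched bases are the same at both loci, and the split of reads between these loci was not tested. Sec61g held 5.54% of their joint reads in replicate 1 and 12.6% in replicate 2. Their sum was 761 TPM in replicate 1 and 1155 TPM in replicate 2, or 957.8 ± 279 (SD, n = 2), which is above Calr, the highest of the 10 genes by mean TPM. The ratio of Sec61g to Sec61a1 was 0.184 and 0.647 with Sec61g alone and 7.29 and 11.03 with Gm10177 added. Sec61b was 27.7 and 6.42 times Sec61g alone, and 0.699 and 0.376 times the sum. Sec61b shares 181 stretches of 50 bases with Gm10320, annotated as protein-coding, which held 29.5 and 22.1 reads.

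**Figure D2:**
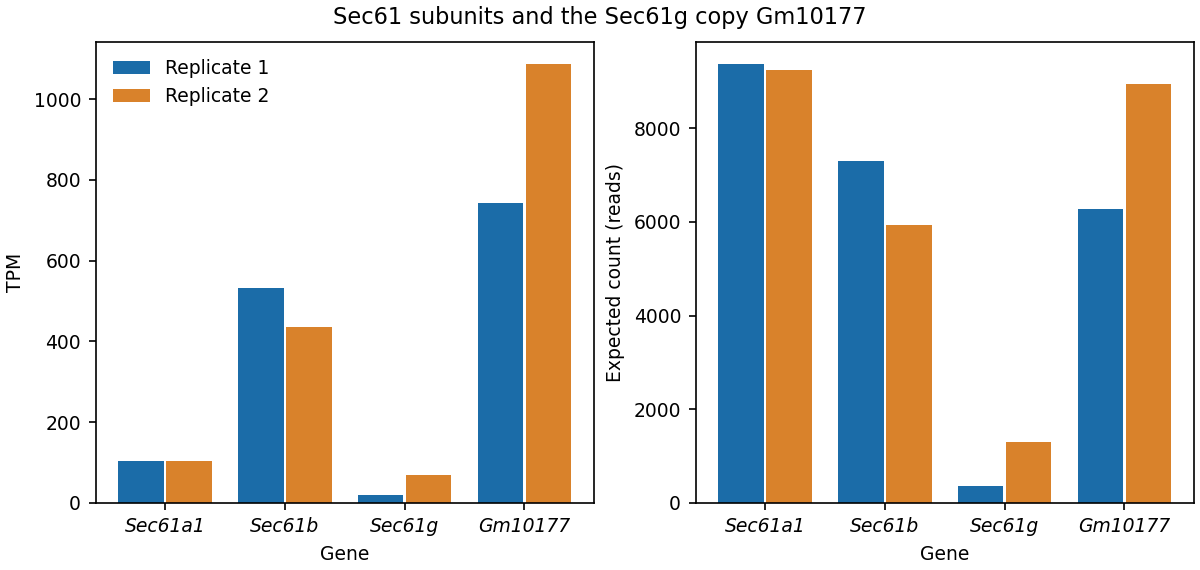
TPM (left) and expected counts (right) of the 3 Sec61 subunit genes and of Gm10177, in replicate 1 (blue) and replicate 2 (orange), with axes starting at 0. Gm10177 stands at 741 and 1087 TPM beside 19.1 and 67.8 TPM for Sec61g, while Sec61a1 is close to level between the libraries.

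Ssr2 encodes a subunit of the TRAP complex (chromosome 3, 88575876 to 88588419). It had 367 TPM from 10429 reads in replicate 1 and 121 TPM from 3419 reads in replicate 2, a 3.04-fold difference. The other subunits were also read higher in replicate 1. Ssr4 had 390 and 121 TPM, Ssr3 139 and 81.7, and Ssr1, named here after its values were seen, 62 and 46.3. An Ssr2 transcript shares 200 stretches of 50 bases with Rtraf, another gene. The deposited posterior standard deviation of the Ssr2 count was 2.07 and 1.47 reads, and the part of the shared sequence in the difference was not tested.

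Hspa5 encodes BiP, the main Hsp70 chaperone of the ER lumen, which also binds the stress sensors of the unfolded protein response (chromosome 2, 34771970 to 34777547). It had 363 TPM from 24833 reads in replicate 1 and 556 TPM from 33273 reads in replicate 2. The TPM in replicate 2 was 1.53 times that in replicate 1, and its share of all reads 1.37 times. The estimated effective length also differed, being 2315 bases in replicate 1 and 2037 in replicate 2. Hspa5-204, an annotated decay transcript of 477 bases, held 12.6% and 20.8% of the gene's TPM from only 513 and 1285 reads. Over coding transcripts alone Hspa5 had 312 TPM in replicate 1 and 429 TPM in replicate 2. Scaled on the spike-ins, the log2 ratio of Hspa5, replicate 1 over replicate 2, was -0.20, against -0.59 when centred on the median gene.

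The lectins hold newly made glycoproteins, and Pdia3 works with them as their disulfide isomerase. Calr (chromosome 8, 84841850 to 84846934, minus strand) had 641 TPM from 33902 reads in replicate 1 and 532 TPM from 28244 reads in replicate 2, or 586 ± 77.2 (SD, n = 2). It ranked 271 among all named genes and lay above 95.8% of the genes detected in both libraries. Canx (chromosome 11, 50293961 to 50325673, minus strand) had 151 TPM from 16682 reads in replicate 1 and 125 TPM from 15063 reads in replicate 2. Pdia3 (chromosome 2, 121413775 to 121438687) had 460 TPM from 27317 reads in replicate 1 and 372 TPM from 23617 reads in replicate 2. Their proportions were nearly the same in both libraries. Calr stood at 4.23 times Canx in replicate 1 and 4.27 in replicate 2, and Pdia3 at 3.04 and 2.99 times Canx. Among all 45 pairs of the 10 genes, the ratio differed between the libraries by a median of 1.66-fold, from 1.01-fold to 10.8-fold. The pairs among Calr, Canx, Pdia3 and Sec61b took the 6 lowest places, at up to 1.02-fold. These pairs were picked out after their values were seen, and with 2 libraries no spread can be set against them. In 37 of the 45 pairs the same gene was the higher in both libraries.

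The other disulfide isomerases were higher in replicate 2, as was Hspa5. P4hb, also a subunit of the collagen-modifying prolyl hydroxylase (chromosome 11, 120560298 to 120573253, minus strand), had 298 TPM from 18118 reads in replicate 1 and 405 TPM from 24404 reads in replicate 2. Pdia6 (chromosome 12, 17266545 to 17284770) had 278 TPM from 16988 reads in replicate 1 and 346 TPM from 21010 reads in replicate 2. When the libraries were scaled on the spike-in RNAs the difference of P4hb was -0.02 on the log2 scale, replicate 1 over replicate 2, and that of Pdia6 0.10, so its sign turned. The 3 isomerases together had 1036 TPM in replicate 1 and 1124 TPM in replicate 2. The lectins together had 792 and 656 TPM. The 6 folding genes had 2191 and 2337 TPM in sum, 2.14 and 3.21 times the sum of the 4 translocation genes. With Gm10177 added to the translocation sum these ratios were 1.24 and 1.29.

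Differences between the libraries were then set beside all genes. The log2 ratio of replicate 1 over replicate 2, on TPM plus 1 and centred on the median of all genes whose mean reached 10 TPM, passed 2-fold for 2 of the 10 genes. Ssr2 was higher in replicate 1, at 1.62, and Sec61g lower in replicate 1, at -1.75. Over all 6801 genes compared, 51.1% passed 2-fold, 25.8% higher in replicate 1 and 25.2% higher in replicate 2. At a mean TPM of at least 100, which all of the 10 but Sec61g reached, 18.7% of 1495 genes passed, 11.4% higher in replicate 1 and 7.22% higher in replicate 2. The median absolute ratio of the 10 genes was 0.32, against 1.03 over all genes compared and 0.45 over genes at a mean TPM of at least 100. Of the genes at a mean TPM of at least 100, Ssr2 was the only 1 of the 10 past 2-fold. Sec61g lay below that level, so its background is the 51.1% of all genes compared. With Gm10177 added, the ratio of Sec61g was -0.58 and only Ssr2 passed. Scaling on 38 spike-ins moved every ratio up by 0.39 and left the same 2 genes past 2-fold, at 2.02 for Ssr2 and -1.35 for Sec61g. In that scaling 2245 of all genes compared stood higher in replicate 1 and 1350 higher in replicate 2, against 1758 and 1716 when centred. Between single libraries no difference of this kind can be checked against replicates.

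**Figure D3:**
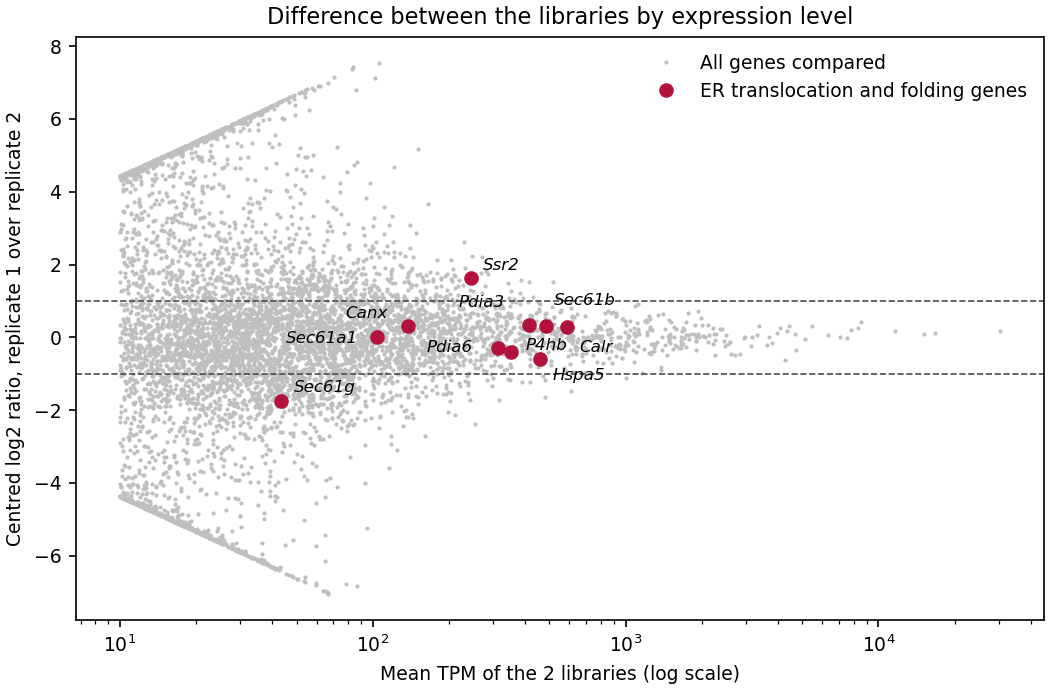
Centred log2 ratio of replicate 1 over replicate 2 against mean TPM (log axis) for all 6801 genes compared (grey) and the 10 genes (red), with dashed lines at 2-fold. Ssr2 lies above and Sec61g below the lines, and the other 8 genes lie between them.

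Marker lists of other cells were read in both libraries, and their 2-fold counts are given against 51.1% of all genes compared. The erythroid list, red cell precursors, was detected in full, 15 of 15 genes in both libraries, with 1999 TPM in replicate 1 and 1682 TPM in replicate 2 in sum, and 5 of 13 genes compared passed 2-fold, 4 higher in replicate 1 and 1 in replicate 2. Of 15 hepatoblast genes 9 were detected in both, with sums of 11236 and 9917 TPM and 2 genes past 2-fold in each direction of 10 compared, while Epcam and Foxa2 were at 0. Afp, Apoa2 and Trf, also in the list of secreted proteins, made up most of these sums. Of 8 mesenchymal genes 6 were detected in both, with 252 and 503 TPM, and 0 of 6 compared were higher in replicate 1 and 3 in replicate 2. Of 10 heart and muscle genes 2 were detected in both and 6 in replicate 2 alone, with 50.2 and 289 TPM, Myh7 and Nppa being at 0, and 0 of 6 compared were higher in replicate 1 and 5 in replicate 2. Of 8 markers of pancreas and plasma cells, which are professional secretory cells, 1 was detected in both, Sdc1 at 31.8 and 25.7 TPM, within 2-fold, and Cpa1, Prss1 and Amy2a5 were at 0. The part of these cell types in the differences of the ER genes was not tested.

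The transcript tables divide each gene among its annotated transcripts. The transcript with the highest TPM was the same in both libraries for 8 of the 10 genes. Over all 4445 genes at a mean of 10 TPM or more with several transcripts it differed for 37.5%, and at a mean TPM of at least 100 for 14.2% of 1081. Canx and Sec61g were the 2 genes that differed. Canx-201 held 87.7% of the gene's TPM in replicate 1 and 7.23% in replicate 2, and Canx-205 held 12% and 92%. These transcripts encode the same 1776-base coding sequence. They share 3775 bases and differ by 506 bases found only in Canx-205, which ends 506 bases farther downstream, and by 4 found only in Canx-201. The shift also changed the effective length of Canx, 3729 bases in replicate 1 and 4116 in replicate 2, so its share of all reads differed 1.08-fold where its TPM differed 1.22-fold. The Sec61g transcripts share sequence with the copy described above, and the part of that copy in their shares was not tested.

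Of the genes with a constant leading transcript, Pdia6-201 and Sec61a1-201 were nearly alone, at 99.3% and 99.2% and at 99.6% and 93.8% of their gene's TPM. Sec61b-201 held 100% and 99.8%, and Ssr2-207 98.5% and 92.3%. In the other 4 genes short annotated transcripts held a larger share. Transcripts that are not of the protein-coding type held 32.2% and 25% of TPM for Pdia3, 22.9% and 28.6% for P4hb, and 23.2% and 22.2% for Calr. The shares of reads behind them were lower, at 9.97% and 7.21% for Pdia3, 3.51% and 4.4% for P4hb, and 10.5% and 10.3% for Calr. A short transcript needs few reads for a given TPM, so the TPM of these genes leans on the assignment of those reads. Over coding transcripts alone the centred log2 ratios were 0.18 for Pdia3, -0.30 for P4hb and 0.28 for Calr, against 0.33, -0.42 and 0.29 over all transcripts.

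**Figure D4:**
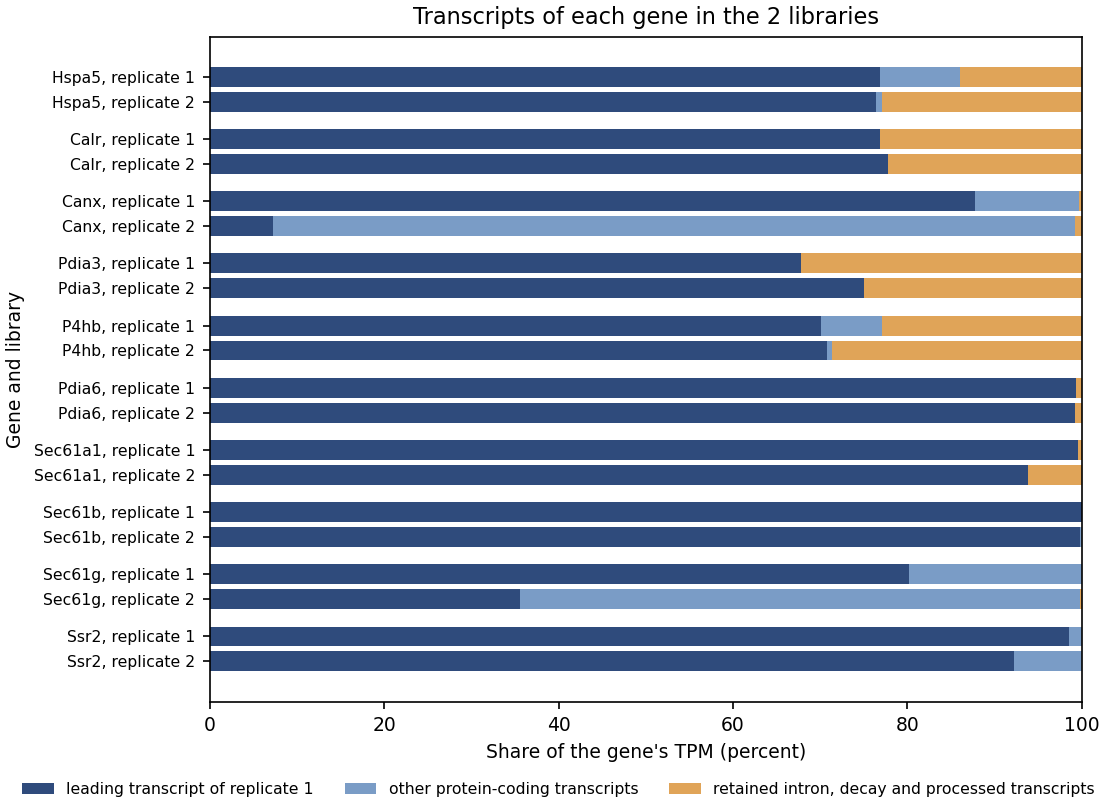
Share of each gene's TPM (percent) held by the leading transcript of replicate 1 (dark blue), by other protein-coding transcripts (light blue) and by retained intron, decay and processed transcripts (ochre), in replicate 1 above replicate 2. The dark bar of Canx is 87.7% in replicate 1 and 7.23% in replicate 2, and that of Pdia6 is above 99% in both.

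By median, the wider secretory pathway was read at lower levels than these 10 genes. Of 106 other genes in 10 lists, 86 were detected in both libraries, 9 in replicate 1 alone, 5 in replicate 2 alone and 6 in neither. Their median level was 5.51 on the log2(TPM + 1) scale, against 8.36 for the 10 genes, and none had a higher mean TPM than Calr. Single genes overlapped in level, as 32 pathway genes had a mean above 100 TPM while Sec61g had 43.45 TPM. Of the 87 whose mean reached 10 TPM, 18 were higher in replicate 1 and 16 in replicate 2 by the 2-fold rule, or 39.1% in all, against 51.1% of all genes compared.

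All 9 genes of the signal recognition particle and its receptor, which bring ribosomes to the channel, were detected in both libraries. The highest were Srp14 at 189 and 248 TPM, Srp19 at 165 and 133 and Srp9 at 111 and 102, and Srp54a had the widest difference at 9.73 and 64.3. Of 8 other translocon genes 6 were detected in both, the highest after the TRAP subunits being Tram1 at 83.9 and 52.6 TPM. All 5 signal peptidase genes, which cut off the signal peptide, were detected, with Sec11a at 383 and 249 TPM, Spcs1 at 303 and 194, Spcs2 at 95.7 and 116, and Sec11c at 45.5 and 156.

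The list with the highest median was that of the oligosaccharyltransferase, the enzyme that attaches N-linked sugars, at 7.51 on the log2(TPM + 1) scale. Of its 12 genes 11 were detected in both libraries, with Ost4 at 532 and 601 TPM, Tmem258 at 446 and 393, and Ostc at 616 and 218. Magt1 had 38.1 TPM from 3983 reads in replicate 1 and 0.08 TPM from 9 reads in replicate 2. Of 7 genes of the glycoprotein folding cycle and cargo receptors 6 were detected in both, led by Mcfd2 at 82.9 and 91.4 TPM, Ganab, a glucosidase subunit, at 78 and 67.1, and Prkcsh at 51.5 and 80.3. Lman1 had 25.1 and 79.3.

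Of 12 other ER chaperones and cochaperones 11 were detected in both libraries. Hsp90b1, the ER member of the Hsp90 family, had 446 and 403 TPM, Manf 249 and 328 and Cnpy2 49.6 and 240. Sdf2 had 0.07 TPM from 1 read in replicate 1 and 30.8 TPM from 1058 reads in replicate 2. Of 16 other isomerases and oxidases 11 were detected in both, led by Prdx4 at 242 and 169 TPM, Erp29 at 134 and 224 and Tmx2 at 117 and 86.3. Tmx1 had 52 and 0.97 TPM, and Pdilt and Ero1lb had no read. Of 6 listed paralogs with tissue-restricted expression, Calr3, Calr4, Clgn and Pdilt (the last also in the isomerase list) had no read, whereas Sec61a2 had 35.5 and 69 TPM. Pdia2, a pancreatic isomerase in both lists, had 142 TPM from 5359 reads in replicate 1 and 6.64 TPM from 86 reads in replicate 2.

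The unfolded protein response list had the lowest median of the 10, at 3.09. Of its 12 genes 7 were detected in both libraries, 3 in replicate 1 alone and 2 in neither. Its effectors were led by Atf4 at 141 and 189 TPM, Xbp1 at 149 and 58.7 and Herpud1 at 104 and 55.7. The sensors Ern1 and Eif2ak3 were under 1 TPM in both libraries, with 1 read of Ern1 in all, while the sensor Atf6, named here after its values were seen, had 5.21 and 2.31 TPM. Ddit3, a stress-induced factor, stood at 52.6 TPM in replicate 1, from 1229 reads, while replicate 2 held none. Of the 7 genes compared, 4 were higher in replicate 1 and 0 in replicate 2 by the 2-fold rule, against 25.8% and 25.2% of all genes compared. Of 12 genes of ER-associated degradation 9 were detected in both, with Vcp at 227 and 235 TPM and Derl2 at 58.3 and 77.5, while Selenos had 53.1 and 0.03.

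Of 13 genes for KDEL receptors and the COPII coat, which return and export ER proteins, 11 were detected in both libraries. Sec13 had 363 and 98.8 TPM, Kdelr2 96.6 and 293, and Sar1b 171 and 81.1, while Sec24b had 25.6 and 1.89. Kdelr3 and Sec24a were under 1 TPM in both. Of the 10 compared, 6 were higher in replicate 1 and 2 in replicate 2 by the 2-fold rule, against the same 25.8% and 25.2% of all genes.

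**Figure D5:**
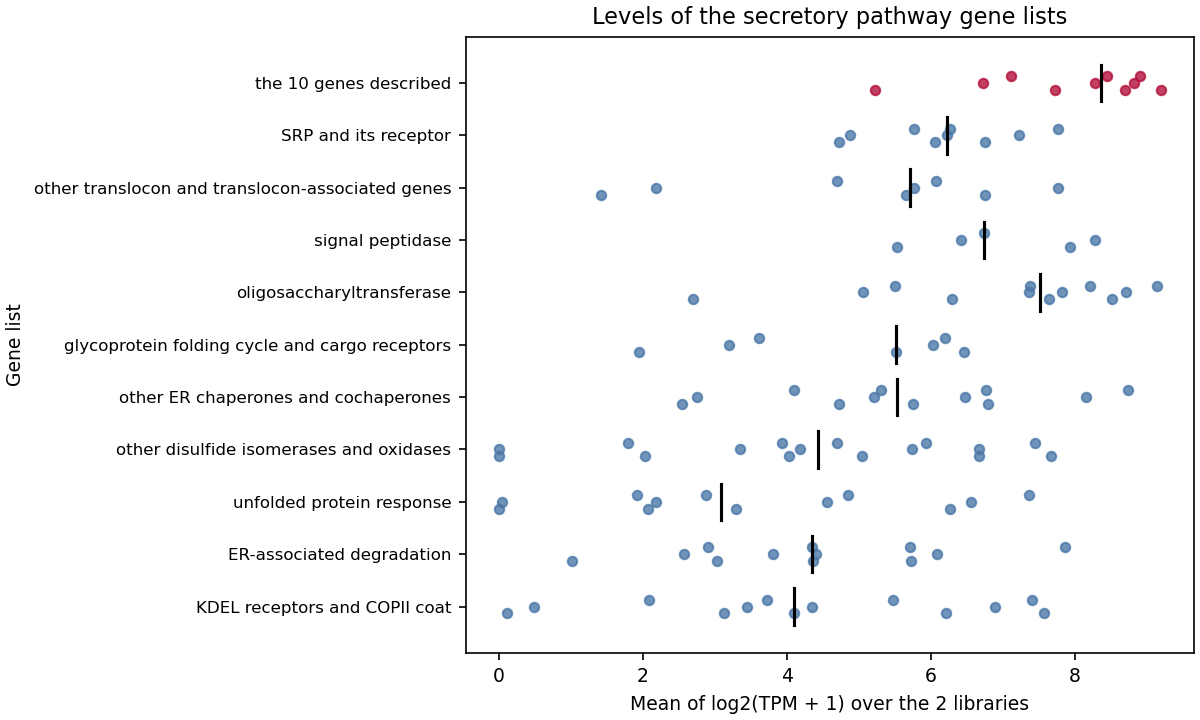
Mean of log2(TPM + 1) over the 2 libraries for the 10 genes described (red) and for the other secretory pathway lists (blue), 1 point per gene, with the median of each list as a black line. The median is 8.36 for the 10 genes, 7.51 for the oligosaccharyltransferase and 3.09 for the unfolded protein response.

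The 10 genes were last set beside their cargo and beside other chaperones. The 18 secreted liver proteins listed, of which 17 were detected in both libraries, had 14402 and 13850 TPM in sum, or 6.57 and 5.93 times the 6 folding genes. Afp, the fetal serum protein, led them at 4870 and 4016 TPM, followed by Apoa2 at 2514 and 2201 and Trf at 1855 and 1760, and Apoh had no read. The mean per gene was 365 and 389 TPM for the ER folding genes. It was 599 and 566 TPM for 13 cytosolic and mitochondrial heat shock chaperones, led by Hspa8 at 2406 and 1481, Hsp90aa1 at 1810 and 1593 and Hsp90ab1 at 1443 and 1725, with no read for the inducible Hspa1a and Hspa1b. It was 432 and 426 TPM for the 8 subunits of the TRiC chaperonin, led by Cct5 at 558 and 711, Cct3 at 623 and 616 and Cct7 at 584 and 277. Medians on the log2(TPM + 1) scale were 8.05 for the heat shock list, 8.675 for TRiC and 8.36 for all 10 ER genes. The mean of the heat shock list was raised by its highest genes, and by median that list stood below the 10 ER genes. The genes whose pair of values lay nearest to that of Calr, over the 2 libraries, were Srsf3 at 655 and 532 TPM, Rpl11 at 627 and 536 and Atp5j2 at 641 and 546, at distances of 0.03 to 0.04 on the log2 scale.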

How the data were processed

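RNA was measured in 2 libraries of embryonic day 11.5 mouse liver, each with a gene and a transcript table. The authors deposited expected counts, which are estimated reads per gene or transcript, TPM, and the percent of each gene's abundance assigned to a transcript. Per the labels and the deposited notes the assembly is mm10 with GENCODE release M4. The name of the aligner is not given in the sources used here, nor is that of the quantification program. Totals were 33289699 reads in replicate 1 and 32607453 in replicate 2. A chi-square of 814 per degree of freedom over 11205 genes shows that the libraries are not 1 library deposited again. A gene with no read allows up to 3 reads, or 0.0901 and 0.092 CPM, and such limits cover counting error only, since PCR copies are not independent molecules.

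Symbols and coordinates came from GENCODE release M21, matched without version suffix, and 42462 of 43346 Ensembl rows matched. Listed names without a match were not analysed here. Log2 ratios of replicate 1 over replicate 2 used a pseudocount of 1, which understates the change of low genes, and were centred on the median of genes whose mean TPM was 10 or more. A 2-fold rule of size replaced a test, and the ratio step was tested on simulated data with counting error only. Such data do not show how the rule behaves at the wider spread between these libraries. TMM factors came from edgeR 4.0.16 on counts rounded to whole numbers, and other steps used Python 3.11.15 with pandas 2.3.3. Alternatives were the scaling, pseudocount, filter, abundance estimate and omission of a replicate.

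The members, lists and alternatives were chosen with earlier results of these data known. Genes named from a list are its 3 highest, up to 3 under TPM 1 in both libraries, and for pathway lists the widest ratio, and 1 gene the rule names is not reported here. Promoter sequences are RefSeq's (GRCm38.p6). Coding sequences are those of GENCODE release M21 transcripts. Genes overlapping Pdia3 (Catsper2), Pdia6 (Atp6v1c2) and Ssr2 (Gm10704) on the opposite strand held at most 74 reads in either library, and whether counting used strand is not stated.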

Additional observations from a re-analysis of the deposited data

How the results depend on the processing

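The direction and the 2-fold call of each of the 10 genes were the same under 8 other ways of forming the ratio, except that Sec61a1 took either sign, from -0.08 to 0.41 on the log2 scale, and Pdia6 was 0.10 when scaled on spike-ins. The summed share of the 10 genes, 0.314% of TPM, was 0.374% of Ensembl gene rows without globins, 0.502% of reads, 0.270% over coding transcripts and 0.405% with Gm10177 added to Sec61g. The ratio of folding to translocation genes, 2.68, was 6.17 in reads, where long transcripts count for more, and 1.265 with Gm10177 added, which also left 1 gene past 2-fold in place of 2. The alternatives with Gm10177 and with coding transcripts were chosen after seeing the data. From either replicate alone the share was 0.306% to 0.321% and the ratio 2.14 to 3.21. Leading transcripts matched for 8 of 10 genes by every estimate tried, and 79 to 88 of 106 pathway genes were detected at thresholds of TPM 5 and 0.1. No paired analysis was possible because there is a single group. Ern1, with 1 read, lies under the 3 reads that a count of 0 allows, and the cause of values at 0 was not tested.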
